A study of Mus musculus with 12 samples.

Results

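The retinas of mice injected with gold particles of 100 nm were set against those injected with silicate particles of the same size, slide by slide. The comparison took the 3 arrays titled for gold 100 nm and the 3 titled for silicate 100 nm, 6 of the 12 arrays of the study, and paired them by replicate number, which is also the slide number. Male C57BL/6 mice aged 5 weeks, called adult in the labels, received PBS, gold or silicate by intravitreal injection into the right eye, and eyes were taken 7 days later. Each group had 12 mice, and 4 retinas were pooled per tube, so that an array reads a pool and not a single mouse. Every array held a particle tube in Cy5 and a PBS tube in Cy3, with no exchange of dyes. The sample annotation writes the size with the unit nM, and the protocol gives it as a diameter in nm. The strain of the PBS channel reads C57BL/6 on the gold arrays and runs from C57BL/7 to C57BL/12 on the silicate arrays. No dose is stated in the labels, and both groups received a particle of some kind.

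Each array gives a log2 ratio, Cy5 over Cy3 and thus the particle tube over PBS, and the quantity compared is the gold ratio minus the silicate ratio on 1 slide. It is positive where the gold tube was higher relative to the PBS on its array. With 12 mice a group, 1 injected eye each and 4 retinas per tube, there were fewer PBS tubes than arrays. Some arrays thus shared a PBS tube. The labels do not say which PBS tube went on which array, so whether the arrays of a slide shared one is not known. On 1 slide the dye effect of a probe is the same on both arrays and cancels in this difference. The gold array always had place 2 on its slide and the silicate array place 4, so place and material cannot be told apart.

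The retina turns light into nerve signals in rods and cones, which rest on the pigment epithelium, the layer that recycles retinal and takes up shed outer segments. Microglia are its resident macrophages, and Muller glia respond to injury with a set of genes called reactive gliosis. Phagocytes take up particles of many kinds. Silica particles are a textbook trigger of the NLRP3 inflammasome, the complex that activates interleukin-1.

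The tubes read as retina. All 23 rod markers were measured, and the probe of the rod transducin gene Gnat1 was well above background in Cy5 on 3 of 3 arrays of both groups. Markers of other eye tissues were present too, among them genes of lens, pigment epithelium, ciliary body and macrophages. After the filter on dim probes 23237 genes were tested, and 15592 of them had a RefSeq symbol.

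None of these genes passed the test. The limma fit with the slide as a block called 0 genes higher in gold (0%) and 0 lower (0%) at an adjusted p under 0.05. The smallest adjusted p was 0.545, shared by 11 genes. At an unadjusted p under 0.05 there were 635 genes higher in gold (2.73%) and 808 lower (3.48%). With 3 arrays a group, an exact permutation of group labels cannot go below 0.1, and an exact sign permutation over 3 slides cannot go below 0.25. The values below are therefore differences between these tubes, and no gene or list is called changed.

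The slides did not carry like amounts of difference. The SD of the difference over genes was 0.22 on slide 1, 0.26 on slide 2 and 0.74 on slide 3. Genes at least 2-fold lower in gold numbered 50, 39 and 1874, the last being 8.06% of the genes tested, and 370 genes on slide 3 were at least 8-fold lower. Genes at least 2-fold higher in gold numbered 59, 216 and 78. Slide 3 was thus lopsided, with most of its large differences on the silicate side, while slide 2 leaned to the gold side. Across genes, which are not independent replicates, the differences had a Pearson correlation of 0.31 between slides 1 and 2, 0.23 between slides 1 and 3, and -0.13 between slides 2 and 3. The PBS channels of the gold and silicate arrays differed less, with an SD of 0.12, 0.11 and 0.18.

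**Figure D1:**
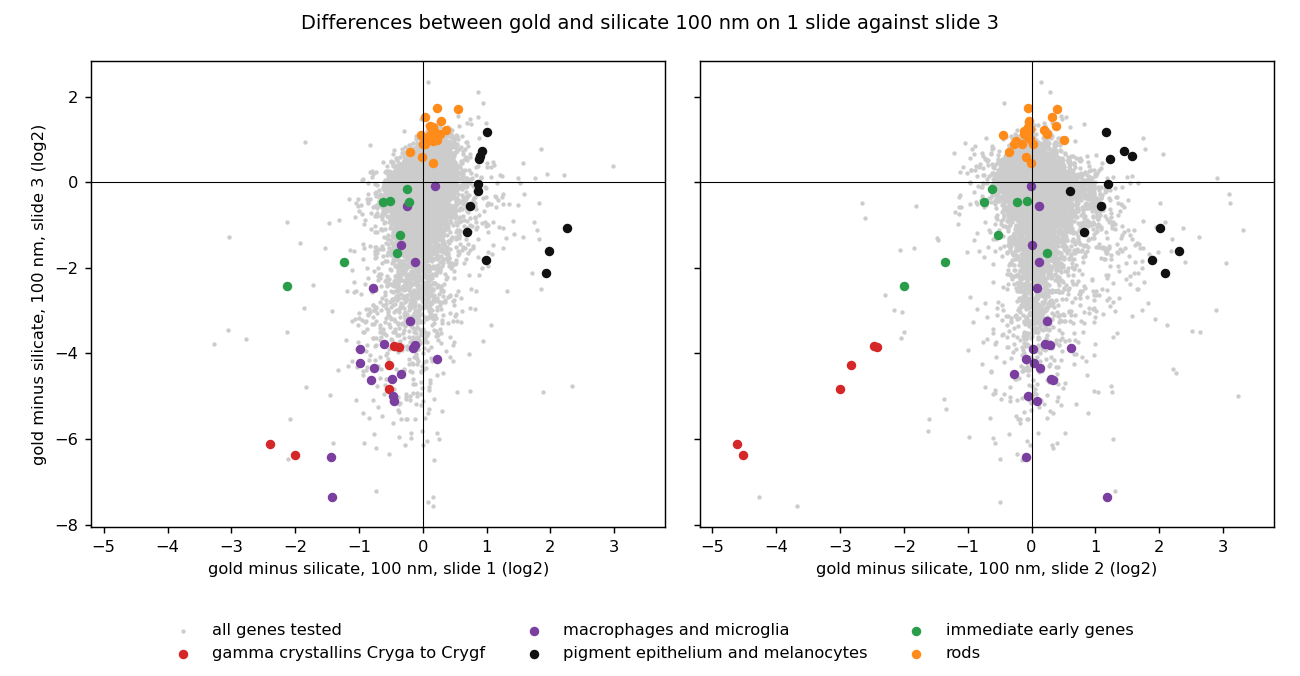
Each point is a gene, with its gold minus silicate difference in log2 on slide 1 (left) or slide 2 (right) on the x axis and on slide 3 on the y axis; colours mark 5 groups of genes and grey the other genes tested. The 6 gamma crystallins lie below 0 on all 3 slides, the macrophage markers reach from -0.09 to -7.35 on slide 3, where Ms4a7 is lowest, but reach 1.19 on slide 2, and rod markers lie above 0 on slide 3.

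Few genes had a like difference on every slide. Gold was lower on all 3 slides for 3786 genes (16.3%) and higher on all 3 for 2881 (12.4%). At least 2-fold on every slide was met by 4 genes lower in gold (0.0172%), namely the gamma crystallin genes Cryge and Crygf and the immediate early genes Egr1 and Fos. Rgr, which encodes an opsin of the pigment epithelium, was the 1 gene at least 2-fold higher in gold on every slide (0.0043%). Both counts rest on the brightest probe of each gene. A dimmer probe of Prb1 was also at least 2-fold higher in gold on every slide, with differences of 2.28 on slide 1 and 1.23 on slide 3. The 5 genes counted were picked by that size alone, so the count is a description of 3 pairs of tubes. Crygb, Crygd, Mip, Rdh5, Dct, Nr4a1, P2ry12, Tmem119, Lcn2, Lyz2, Irf7, Nlrp3, Gfap, Stat3 and Hmox1, members of the lists below, were named after their values were seen.

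The 250 bases before the RefSeq start of Cryge, Crygf, Rgr, Rpe65 and Fos are given because members of these pairs or families had like values on the slides; 5 of 6 genes looked up were in the promoter table of GRCm38.p6. Capitals mark motifs found on either strand: TATATAG in the crystallin promoters, which is TATA-like, GGATTA in Rgr and Rpe65, with the Rgr match on the other strand, the core read by homeodomain factors such as OTX2, and TGACGT and TATAAA in Fos, the core of a cAMP response element and a TATA box. Cryge lies at chr1:65051164-65051413 on the minus strand, Crygf at chr1:65926272-65926521 on the plus strand, Rgr at chr14:37049015-37049264 on the minus strand, Rpe65 at chr3:159598931-159599180 on the plus strand and Fos at chr12:85473640-85473889 on the plus strand.
Cryge promoter: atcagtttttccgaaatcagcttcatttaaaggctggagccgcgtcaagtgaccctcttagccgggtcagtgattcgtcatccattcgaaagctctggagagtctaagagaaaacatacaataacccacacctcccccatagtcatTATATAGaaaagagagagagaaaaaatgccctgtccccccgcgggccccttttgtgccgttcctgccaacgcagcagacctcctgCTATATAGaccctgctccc
Crygf promoter: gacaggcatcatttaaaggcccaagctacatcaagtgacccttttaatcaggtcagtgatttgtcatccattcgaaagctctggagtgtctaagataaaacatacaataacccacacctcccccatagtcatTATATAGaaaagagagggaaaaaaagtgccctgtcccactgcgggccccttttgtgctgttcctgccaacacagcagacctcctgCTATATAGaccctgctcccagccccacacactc
Rgr promoter: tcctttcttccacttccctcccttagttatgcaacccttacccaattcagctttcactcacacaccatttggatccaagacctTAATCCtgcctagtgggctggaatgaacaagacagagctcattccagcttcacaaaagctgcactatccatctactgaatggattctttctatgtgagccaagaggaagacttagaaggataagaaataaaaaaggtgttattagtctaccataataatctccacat
Rpe65 promoter: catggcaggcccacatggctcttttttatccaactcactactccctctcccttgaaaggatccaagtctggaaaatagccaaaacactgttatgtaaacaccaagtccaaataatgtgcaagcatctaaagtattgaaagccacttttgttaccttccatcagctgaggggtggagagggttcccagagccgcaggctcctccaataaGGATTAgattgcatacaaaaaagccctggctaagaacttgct
Fos promoter: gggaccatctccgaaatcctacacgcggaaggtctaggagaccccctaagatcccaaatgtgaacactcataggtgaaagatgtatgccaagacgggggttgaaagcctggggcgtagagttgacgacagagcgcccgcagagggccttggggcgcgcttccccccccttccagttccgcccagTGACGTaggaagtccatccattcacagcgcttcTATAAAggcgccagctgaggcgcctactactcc
In both crystallin promoters the second stretch in capitals holds the motif on both strands, overlapping by all but 1 base, so 3 matches fill 2 stretches. The crystallin promoters were identical at 213 of 264 aligned columns (80.7%). TATATAG is held by 587 of the 32851 promoter windows of this length (1.79%), GGATTA by 6.25%, TGACGT by 6.47% and TATAAA by 12.4%. A match describes letters and is no evidence that a factor binds.

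Crystallins are the bulk proteins of the lens, and gamma crystallins belong to its fibre cells. Crygf had log2 ratios of -3.09, -3.75 and -2.59 on the gold arrays of slides 1, 2 and 3 and of -0.70, 0.86 and 3.54 on the silicate arrays. The gold tubes lay below PBS on every slide and the groups did not overlap, while the silicate tubes spread more widely than the gold tubes. Gold minus silicate was -2.39, -4.61 and -6.12, a mean of -4.38 ± 1.88 (SD, n = 3 slides), which is 20.8-fold lower in gold (limma, unadjusted p 0.000128, adjusted p 0.545). Cryge read -2.42, -3.66 and -2.99 with gold and -0.42, 0.87 and 3.37 with silicate, a mean difference of -4.30 ± 2.19 (SD, n = 3) or 19.7-fold. Another probe of Crygf gave differences of -1.95, -4.03 and -5.02.

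The other members of this gene cluster had the same direction with smaller sizes. Crygc had differences of -0.53, -3.004 and -4.82, Cryga of -0.53, -2.84 and -4.27, Crygd of -0.46, -2.46 and -3.84 and Crygb of -0.38, -2.42 and -3.85. All 6 genes Cryga to Crygf had ratios that did not overlap between the groups, where 589 genes or 2.53% did so in that direction. These genes are close copies of each other, so probes may share signal and the 6 are not independent readings.

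The rest of the lens list went another way on slides 1 and 2. The list had 24 genes, all measured, with 0 called, and its medians were 0.22, 0.27 and -3.28 on slides 1, 2 and 3, against -0.01, -0.01 and -0.03 over all genes tested. Split after the values were seen, the other 18 lens genes were higher in gold in 16 of 18 on slide 1 and 14 of 18 on slide 2, and lower in 18 of 18 on slide 3. Cryaa, an alpha crystallin and the brightest of the list, had differences of 0.28, 1.35 and -3.53. Mip, the water channel of lens fibres, had 0.32, 2.27 and -4.46. On slide 1 both tubes held far more lens RNA than PBS outside the gamma cluster, with median ratios of 2.84 for gold and 2.61 for silicate over the 18 genes, beside -0.23 and 0.30 over the 6 gamma crystallins. The amount of lens tissue taken with the retina is not recorded in the labels, and its part in these values was not tested. Without slide 3 the fitted median of the lens list was 0.33, from -0.79 over all slides (median of the mean differences), while Crygf kept its direction at -3.50.

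**Figure D2:**
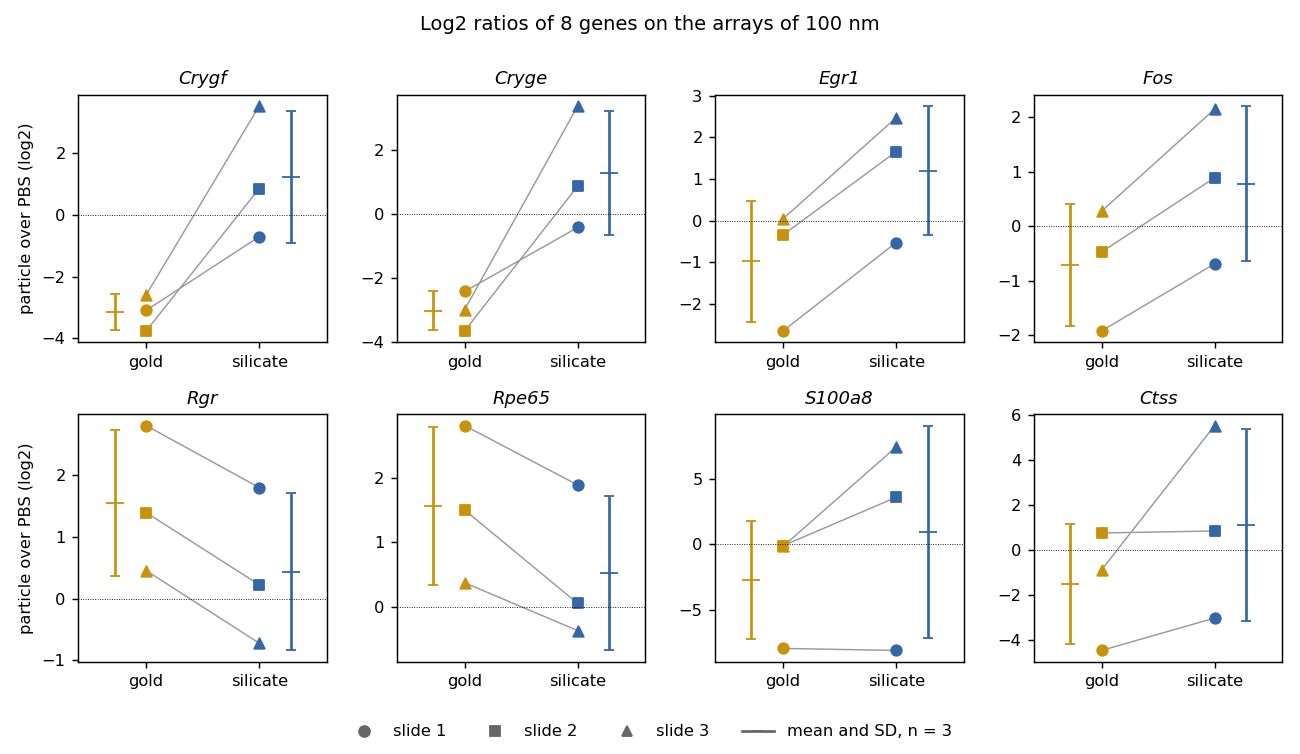
Log2 ratios of particle over PBS on the y axis for 8 genes on the gold and silicate arrays of 100 nm; each symbol is 1 array, lines join arrays of 1 slide, and the bars beside them give mean and SD (n = 3). Crygf and Cryge do not overlap between the materials, and the lines of Egr1 and Rgr run nearly parallel over the slides. Those of Fos and Rpe65 keep their direction with sizes that vary more, and S100a8 and Ctss differ by slide.

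Rgr, Rpe65, Lrat and Ttr, 4 genes of the pigment epithelium list with roles in handling retinoids, had positive differences on every slide; they are set apart here after their values were seen, and none passed the test. Rgr had log2 ratios of 2.81, 1.40 and 0.46 on the gold arrays and 1.80, 0.23 and -0.72 on the silicate arrays. Each gold array lay above the silicate array of its slide by a near constant amount, although the ratios overlap between groups because the slides differ. The differences were 1.00, 1.17 and 1.18, a mean of 1.12 ± 0.10 (SD, n = 3) or 2.17-fold higher in gold (limma, unadjusted p 0.00014, adjusted p 0.545). Rpe65, the isomerase that makes 11-cis retinol, had 2.81, 1.499 and 0.37 with gold and 1.89, 0.05 and -0.37 with silicate, a mean difference of 1.04 ± 0.37 or 2.05-fold. Lrat, which esterifies retinol for that step, had differences of 0.89, 1.57 and 0.60. Ttr, the retinol carrier transthyretin, had 0.89, 1.24 and 0.54, and Rdh5, the next dehydrogenase of the cycle, 0.87, 1.20 and -0.05.

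The melanin genes were higher with gold on slides 1 and 2 and lower on slide 3. Of the list of pigment epithelium and melanocytes 12 of 13 genes were measured, all 12 higher in gold on slides 1 and 2 and 4 of 12 on slide 3, with medians of 0.91, 1.34 and -0.38 and 0 called. Pmel, a scaffold of melanin fibrils, had differences of 2.26, 2.02 and -1.08. Tyrp1 and Dct, enzymes of melanin synthesis, had 1.97, 2.31 and -1.61, and 1.93, 2.09 and -2.12. On slide 3 the melanin genes were thus higher with silicate while Rgr, Rpe65, Lrat and Ttr stayed higher with gold. The potassium channel gene Kcnj13 of the pigment epithelium had 1.24, 1.57 and 0.16. On slide 1 both tubes had far more pigment epithelium RNA than PBS, and how much of this layer came with each retina was not tested.

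Immediate early genes, whose products are made within minutes of a stimulus, were lower with gold. Egr1, a zinc finger factor, had log2 ratios of -2.65, -0.34 and 0.05 on the gold arrays and -0.52, 1.66 and 2.48 on the silicate arrays. The silicate tube was far above the gold tube on every slide, although the ratios overlap between groups because the slides differ. Its differences were -2.12, -1.998 and -2.43, a mean of -2.18 ± 0.22 (SD, n = 3), which is 4.54-fold lower in gold (limma, unadjusted p 0.000502, adjusted p 0.674). Fos, a subunit of the AP-1 factor, had -1.92, -0.47 and 0.28 with gold and -0.69, 0.89 and 2.15 with silicate, a mean difference of -1.49 ± 0.34 or 2.81-fold.

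The list had 9 genes, of which Junb did not pass the filter, and 7 of the other 8 were lower in gold on all 3 slides with 0 called. Its medians were -0.47, -0.57 and -0.85. Dusp1, a phosphatase of MAP kinases, had differences of -0.36, -0.52 and -1.23, and the nuclear receptor gene Nr4a1 had -0.63, -0.75 and -0.46. Jun, the brightest of the list and the partner of Fos in AP-1, was the exception with -0.41, 0.25 and -1.65.

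Inflammatory genes were far lower with gold on slide 3 and differed less, or the other way, on slides 1 and 2. Ctss, a lysosomal protease of microglia and macrophages, had log2 ratios of -4.49, 0.74 and -0.90 on the gold arrays and -3.05, 0.83 and 5.51 on the silicate arrays. On slide 1 both materials lay far below PBS, on slide 2 both were near it, and on slide 3 the silicate tube alone was far above it. The normalized log2 level of Ctss in the PBS channel of the gold arrays was 16.31, 11.58 and 12.61, and that of the silicate arrays 16.28, 11.58 and 11.85, so the PBS channels of slide 1 were the high ones. Gold minus silicate was -1.44, -0.09 and -6.41, a mean of -2.65 ± 3.33 (SD, n = 3; limma, unadjusted p 0.0857, adjusted p 0.674). The mean rests on slide 3: without it the fitted difference was -0.77. On slide 3 the PBS reading of Ctss was higher on the gold array, so the ratios there overstate its Cy5 difference. With Cy5 levels alone the fitted difference over all slides was -2.38.

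Over the macrophage and microglia list, 20 of 21 genes were measured and 0 called. Gold was lower in 18 of 20 on slide 1, 5 of 20 on slide 2 and 20 of 20 on slide 3, with medians of -0.46, 0.11 and -4.01. The summed Cy5 level of the list, in log2, was 15.69, 15.97 and 15.45 in the gold tubes and 15.94, 15.80 and 19.00 in the silicate tubes, and its probes were well above background on all 6 arrays. Ms4a7, a membrane protein of macrophages, had differences of -1.42, 1.19 and -7.35. P2ry12 and Tmem119, markers of resting microglia, had -0.25, 0.12 and -0.55, and -0.13, 0.12 and -1.87. In pooled tissue, fewer cells of a type and less RNA per cell cannot be told apart.

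S100a8 and S100a9, of the neutrophil list, had large differences on slides 2 and 3. S100a8, a subunit of the alarmin calprotectin, had log2 ratios of -7.92, -0.09 and -0.15 with gold and -8.07, 3.59 and 7.42 with silicate. S100a9, its partner, had -5.88, -0.08 and -1.26 with gold and -6.04, 4.19 and 6.09 with silicate. Both genes were about alike between the materials on slide 1, where the PBS channels were high. On slides 2 and 3 the differences were -3.68 and -7.57 for S100a8, and -4.27 and -7.34 for S100a9. Only 1 of the 3 gold tubes was well above background for S100a8, so its gold level has only an upper bound in the others. Its differences against those tubes are bounds and not sizes. Like values on slide 1 may also be those of signals near background. The neutrophil list as a whole had a large difference on slide 3 alone, with 0 called and medians of 0.15, -0.12 and -2.67 over 12 of 15 genes measured. In Cy3 on slide 3, gold array minus silicate array, the value was -1.096 for S100a9, -3.67 for Lcn2 and -3.20 for Lyz2. The PBS readings of these genes thus differed within the slide, and their ratios there understate the Cy5 difference.

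Chemokine genes had their largest differences on slide 3, and some also on slide 1. Cxcl10, an interferon-induced chemokine for T cells, had ratios of -3.30, 0.06 and -1.17 with gold and -1.18, 0.55 and 5.28 with silicate, and differences of -2.12, -0.50 and -6.46. Ccl5, a chemokine for T cells and monocytes, had differences of -2.08, -0.07 and -5.53. Cxcl5, which attracts neutrophils, had -1.40, -0.57 and -6.11 (limma, adjusted p 0.674), and none of the 3 gold tubes gave a Cy5 signal well above background, so its gold level has only an upper bound and no fold is given. The list medians of chemokines and cytokines were -0.21, -0.08 and -4.18 over 13 of 20 genes measured, 7 of them lower on all slides.

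Class II genes had medians of -0.60, 0.38 and -3.69, and class I genes of -0.73, 0.15 and -3.31. Cd74, the class II invariant chain, had differences of -0.94, 0.87 and -4.50, and B2m, the light chain of class I, -0.78, 0.41 and -4.32. On slide 2 all 7 class II genes were higher in gold, the reverse of slides 1 and 3 for 6 of the 7. The interferon list had medians of -0.79, 0.07 and -2.45, and 17 of 18 genes were lower in gold on slide 1. Irf7, a factor that drives type I interferon, was lower on all slides at -0.76, -0.83 and -1.62, as were 6 of the 18 genes in all.

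Of the inflammasome list, 9 of 11 genes were measured. None was called, and the medians were -0.08, 0.01 and -3.12. Nlrp3 itself, the sensor protein of the complex, had ratios of -0.66, -0.26 and -0.04 with gold and -0.58, 0.01 and 0.33 with silicate. Its difference of -0.24 has a 95% interval of -0.59 to 0.11, not adjusted for the number of genes. Il1b, the cytokine that the complex activates, had differences of -0.02, -1.62 and -5.80, and Casp1, its protease, -0.71, 0.01 and -4.76. On slide 3 the difference of the sensor was thus much smaller than those of Il1b and Casp1.

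Complement genes had medians of -0.11, 0.39 and -3.25, with C3, the central component, at -0.84, 0.25 and -5.52. Phagocytosis and lysosome genes had -0.02, 0.30 and -1.88. Marco, a scavenger receptor that binds silica, had differences of 0.07, -0.07 and -6.04. Lgals3, a lectin of damaged lysosomes, had 0.08, 0.88 and -5.39. Extracellular matrix genes had medians of 0.04, 0.17 and -3.19, led by Col1a1, the main collagen of scars, at -0.18, 0.52 and -5.85.

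Glial stress genes differed on slides 1 and 3 and little on slide 2. All 14 genes of the reactive gliosis list were lower in gold on slides 1 and 3 and 9 of 14 on slide 2, with medians of -0.68, -0.10 and -2.75 and 0 called. Edn2, an endothelin released by injured photoreceptors, had ratios of -4.03, -1.49 and -2.09 with gold and -0.97, -1.67 and 1.35 with silicate. Its differences of -3.06, 0.17 and -3.44 make the split between slides plain. Cebpd, a factor of the acute phase, had -2.76, -0.70 and -3.67, Gfap, the glial filament, -1.86, -0.19 and -2.95, and Stat3 -1.14, -0.23 and -1.59.

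**Figure D3:**
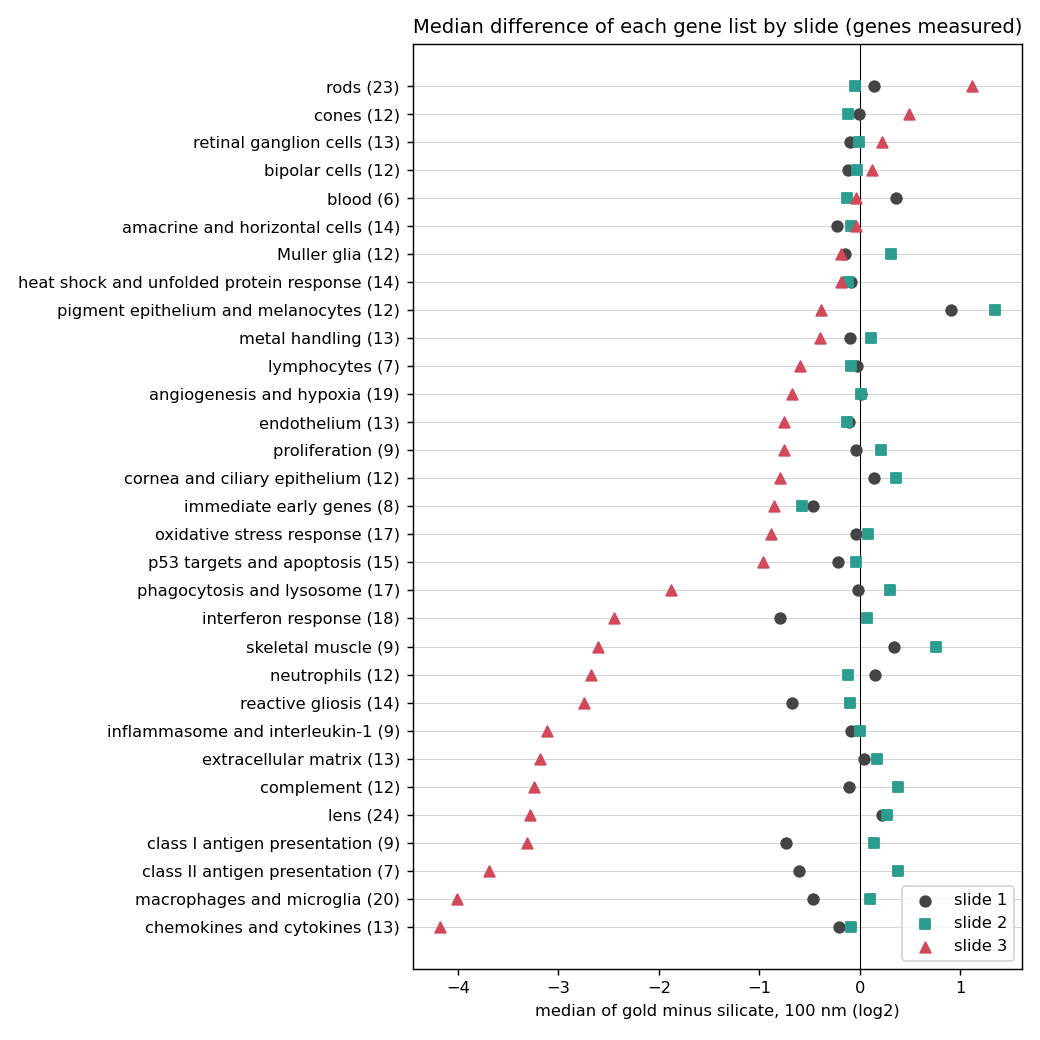
Median gold minus silicate difference in log2 (x axis) of each of 31 gene lists, with the number of genes measured beside each name; symbols mark the slides. Slide 3 runs from 1.12 for rods to -4.18 for chemokines, while on slides 1 and 2 the medians lie within 1 log2 unit of 0, except pigment epithelium at 1.34 on slide 2.

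Photoreceptor genes were higher with gold on slide 3. Rod markers had medians of 0.14, -0.05 and 1.12, with 23 of 23 higher in gold on slide 3, 19 on slide 1 and 7 on slide 2. Gnat1 had ratios of 0.91, 0.26 and 0.83 with gold and 0.69, 0.31 and -0.91 with silicate, so the silicate ratio of slide 3 was the low one. Its mean difference of 0.63 has a 95% interval of -0.16 to 1.43, not adjusted for the number of genes. Its differences were 0.23, -0.06 and 1.74, beside a Cy3 value on slide 3, gold array minus silicate array, of -0.85. The PBS reading of Gnat1 was thus higher on the silicate array, and the ratios of slide 3 overstate its Cy5 difference. Over the rod list the median Cy3 value on slide 3 was -0.28. Guca1a, the calcium sensor of guanylate cyclase, had 0.54, 0.40 and 1.70. On slide 3 the summed rod level was 21.45 in the gold tube and 20.68 in the silicate tube, beside the macrophage sums of 15.45 and 19.00. Whether the rod and macrophage values are linked was not tested, and without slide 3 the fitted rod median was 0.05.

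Cone markers had smaller medians of -0.01, -0.11 and 0.49. Arr3, cone arrestin, stood apart with ratios of 0.71, -0.02 and 0.49 for gold and -0.03, -0.49 and -0.99 for silicate, which do not overlap, and differences of 0.74, 0.47 and 1.48 (limma, unadjusted p 0.00651, adjusted p 0.674). Bipolar, amacrine and horizontal, and ganglion cell lists had medians between -0.23 and 0.22 on all slides. Muller glia markers had -0.14, 0.31 and -0.19, and their brightest, Clu, had -0.46, 0.61 and -0.78.

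Several genes with large differences on slides 1 and 2 were higher with gold there. Optc, opticin of the ciliary body and vitreous, had ratios of 3.82, 3.51 and 3.73 with gold and 2.23, 0.42 and 4.005 with silicate. The gold tubes were alike, the silicate tubes spread widely, and the groups overlap. Penk, proenkephalin, had differences of 1.499, 2.91 and 0.11, Slc26a4, an anion exchanger, 1.83, 3.10 and -0.49, and Fbln1, a matrix fibulin, 1.79, 3.32 and -1.12. Without the silicate array of slide 2 the fitted difference was 0.31 for Optc and 0.496 for Penk, from 1.47 and 1.504. On slide 3 Penk was near 0 and the others were lower in gold.

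Vessel, lymphocyte and surface markers had smaller differences. Endothelial genes had medians of -0.11, -0.12 and -0.75, with Vwf, a clotting factor stored in these cells, at -0.90, -0.37 and -2.38. Lymphocyte genes had -0.03, -0.09 and -0.59 over 7 of 14 measured. Cornea and ciliary genes had 0.14, 0.36 and -0.79.

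The largest differences on single slides and of even sign included further genes outside these lists. Clec4d, a lectin receptor of myeloid cells, had 0.08, -0.50 and -7.47, and Plac8 had -0.27, -1.61 and -5.52. Bcl3, a regulator of NF-kappaB, had -1.83, -0.72 and -4.79, and Saa1, an acute phase protein, -0.37, -0.98 and -5.96. By their brightest probes gold was lower on all 3 slides for Bcl3, Plac8 and Saa1. A dimmer probe of Plac8 had 0.07, 0.03 and -3.19, and so was lower in gold on slide 3 alone. Glb1l3, a galactosidase-like gene, had 0.86, 0.29 and 2.11, and Pdzph1 0.87, 0.54 and 1.53. Prb1 had 1.57, 1.104 and 0.45 by its brightest probe and larger differences by the dimmer probe given above. Gold was higher on all 3 slides for Glb1l3, Pdzph1 and Prb1. Nid1, a basement membrane protein, had -0.09, 3.24 and -4.998, Ecel1, a neuronal protease, -3.04, 0.22 and -1.29, and Lce3a 0.94, -0.43 and 1.85, which differ in sign between slides.

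Smaller but even differences were found in genes outside these lists. Dnaic2, Ell3 and Ect2 were chosen from earlier results of these same data by material. Dnaic2, a dynein chain of motile cilia, had ratios of -0.51, -0.52 and -0.30 with gold and 0.20, 0.19 and 0.22 with silicate. The silicate tubes were nearly the same and the groups did not overlap. Its difference of -0.65 ± 0.11 (SD, n = 3) is 1.57-fold lower in gold and had the smallest unadjusted p of all genes, 7.67e-05 (limma, adjusted p 0.545). Ell3, an elongation factor of RNA polymerase, had 0.36, 0.33 and 0.32 with gold and -0.27, -0.12 and -0.42 with silicate, 1.52-fold higher in gold; its fitted difference of 0.61 was 1.003 with processed signals and 0.93 in the series' value table. Ect2, a guanine nucleotide exchange factor of cytokinesis, had differences of 0.53, 0.44 and 0.87.

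Slc15a2, a peptide transporter, had ratios of 0.33, 0.57 and 0.41 with gold and -0.43, -0.26 and -0.95 with silicate, which do not overlap. Its difference of 0.98 ± 0.33 (SD, n = 3) is 1.97-fold higher in gold (limma, unadjusted p 0.000102, adjusted p 0.545). Named after their values were seen, Tmem116, Gng8, Acadm, Isyna1 and Rnf43 also did not overlap, with mean differences of 0.44, 0.58, 0.51, 0.63 and 0.64. Acadm is a dehydrogenase of fatty acid oxidation, and Isyna1 makes inositol phosphate. Among all genes, 610 (2.63%) had non-overlapping ratios with gold higher.

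**Figure D4:**
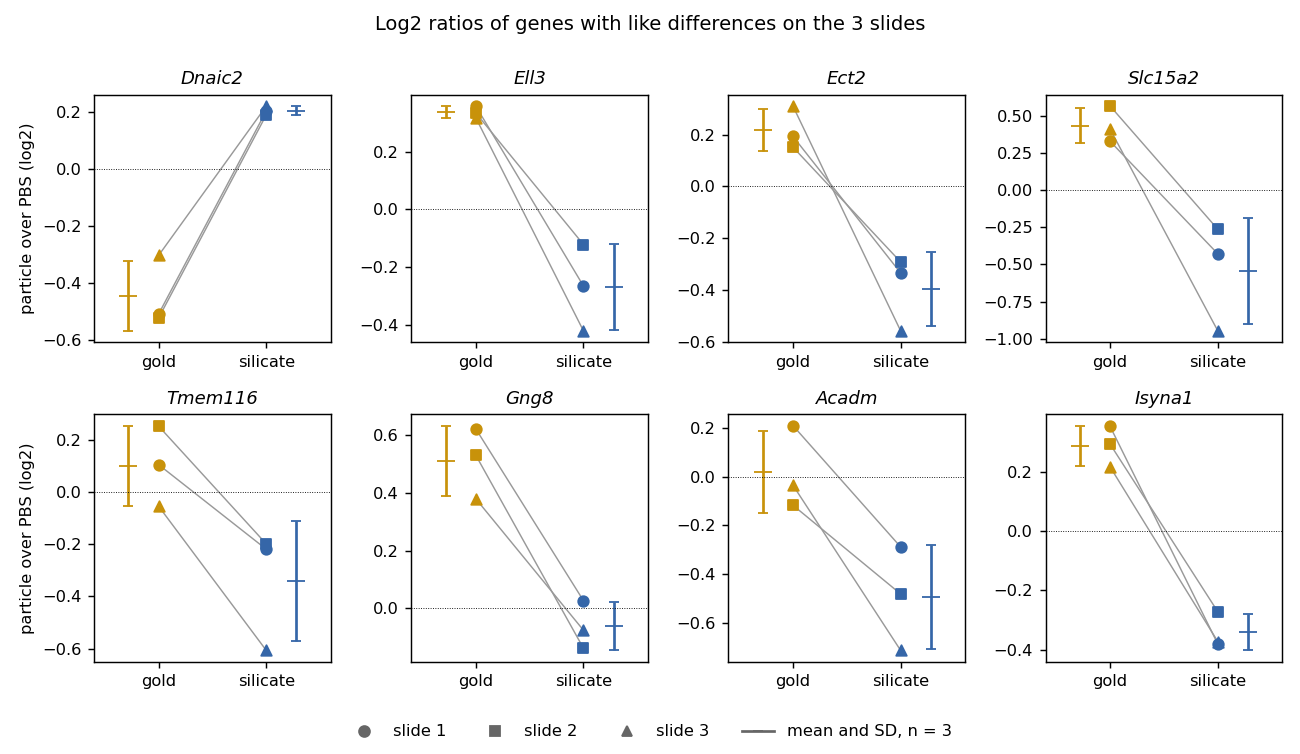
Log2 ratios of particle over PBS (y axis) of 8 genes with even differences; each symbol is 1 array, lines join arrays of 1 slide, and bars give mean and SD (n = 3). Dnaic2 is lower in gold on each slide and the other 7 genes are higher, with no overlap between the materials.

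Lists for responses to metal, oxidation, unfolded protein, DNA damage and low oxygen had medians near 0 on slides 1 and 2. Metal handling genes had medians of -0.10, 0.11 and -0.40. Mt2, a metallothionein, had -0.39, 0.21 and -2.47, and Tfrc, the transferrin receptor, had 0.54, 0.38 and 0.73 with ratios that did not overlap. A further probe of Tfrc had 0.59, 0.33 and 0.55, and another had 0.56, -0.27 and 0.50, which turns sign on slide 2. Oxidative stress genes had -0.03, 0.08 and -0.89, with the heme oxygenase gene Hmox1 at 0.49, 1.37 and -2.07. Heat shock and unfolded protein genes had -0.09, -0.11 and -0.19, p53 targets -0.22, -0.04 and -0.97, hypoxia and angiogenesis genes 0.02, 0.01 and -0.67, and proliferation genes -0.04, 0.21 and -0.75. Mki67, a marker of dividing cells, had -0.07, 0.35 and -3.10. Vegfa, the growth factor of new vessels, had ratios of 0.29, 0.23 and 0.40 with gold and 0.12, 0.33 and 0.46 with silicate. Its fitted difference of 0.00 has a 95% interval of -0.18 to 0.19, not adjusted for the number of genes. That interval is for the brightest probe, and another probe of Vegfa had differences of 0.36, -0.16 and -0.47. Serpina6, a steroid-binding globulin, had 2.56, 2.73 and 2.42 with gold and 2.31 and 2.38 with silicate on slides 1 and 3. Its spot on the silicate array of slide 2 was left out as an outlier, and the fitted difference of 0.17 rests on the other arrays; it was 0.58 with processed signals and 0.71 in the series' value table.

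The 20 nm particles of the same materials lay on the same slides and gave another pair of groups. A test of whether the material difference at 100 nm differs from that at 20 nm called 0 of 23237 genes (0%; limma, smallest adjusted p 0.9998), with 504 at an unadjusted p under 0.05 (2.17%). Crygf and Egr1 had the same direction at both sizes on every slide. Crygf had gold minus silicate differences of -3.39, -5.47 and -5.04 at 20 nm, and Egr1 of -0.86, -1.63 and -3.33. Dnaic2, with -0.80, -0.56 and -0.50, and Ell3, with 0.45, 0.86 and 0.43, also kept their direction. These 2 genes were chosen from earlier results of these same data by material, so their direction at 20 nm is no independent support. Of the visual cycle genes, Rgr had -0.67, -0.36 and -0.29 at 20 nm, Lrat -0.71, -0.06 and -0.19, and Rpe65 -0.63, 0.10 and -0.04. Slc15a2 had -0.30, 0.17 and -0.21. The macrophage and microglia list also had a large difference on slide 3 at 20 nm, with medians of -0.72, 0.67 and -3.70.

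**Figure D5:**
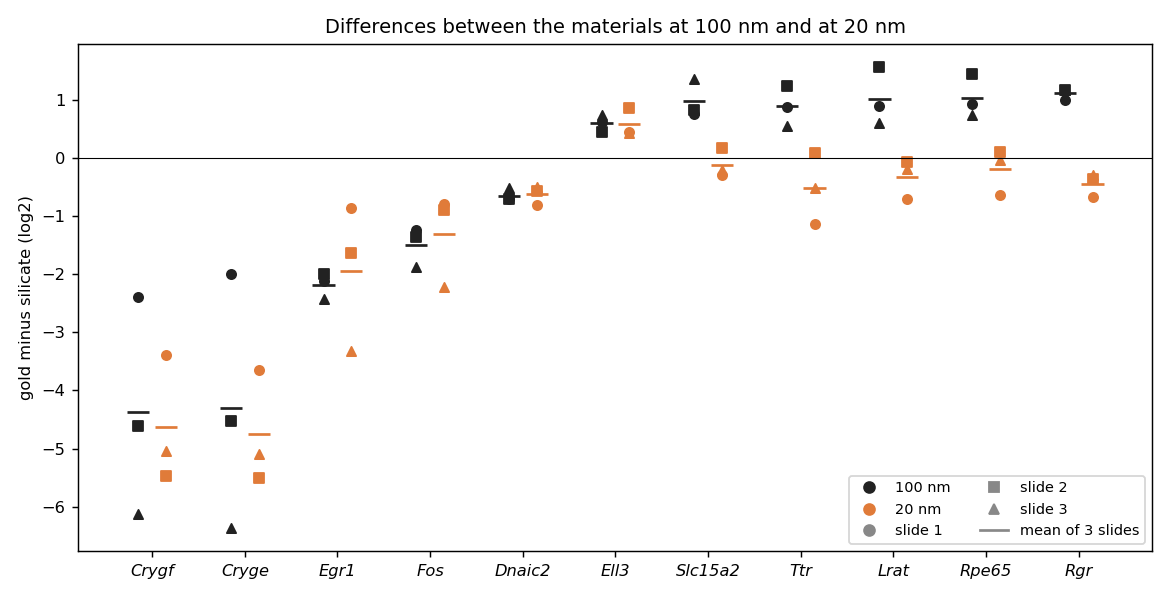
Gold minus silicate difference in log2 (y axis) of 11 genes at 100 nm (black) and 20 nm (orange); symbols mark slides and short lines the mean of 3 slides. Crystallin, immediate early, Dnaic2 and Ell3 points lie on the same side of 0 at both sizes, while Rgr and Lrat lie above 0 at 100 nm and below it at 20 nm on every slide. Dnaic2 and Ell3 were chosen from earlier results of these data by material.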

How the data were processed

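The members and gene lists were chosen with earlier results of these data known. The deposited files hold scanner output of Agilent arrays with 2 channels in units of intensity. Per the file headers the software was Feature Extraction 11.0.1.1; 9.3.2.1 is the version in the submitters' processing notes. Values in the deposited series matrix were on a log2 scale (Cy5 relative to Cy3), and the deposited log10 ratio column of each array served to find its scale: slopes were 3.30 to 3.32 and correlations across spots 0.942 to 0.995. Its columns had medians of 0.06, 0.05 and 0.04 for gold 100 nm and 0.07, 0.05 and 0.11 for silicate 100 nm; how they were centred is unknown.

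Median signals were corrected with limma's normexp (offset 50) and normalized by loess within each array, with 1377 control spots at weight 0. On each array 149 to 257 outlier spots were dropped; saturation occurred at none. Averaging the spots of each probe left 39429 probes. RefSeq accessions gave 26055 of them a symbol (GRCm38.p6, for names alone; the file headers give mm9). The 28460 probes kept were well above background, in either channel, on every array of some group; the brightest probe stood for its gene. All 12 arrays were fitted with limma 3.58.1 in R 4.3.3, with group and slide as terms, two-sided, Benjamini-Hochberg adjusted over 23237 genes with a threshold of 0.05. Group comparisons share 1 estimate of the spread. For 2 genes there was no fitted difference. The pipeline was tested on simulated data in which the spread of each gene was capped at the median over genes. Many genes here spread more widely, so that test does not show which changes could be found in these arrays. The number of arrays limits precision.

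Replicate numbers are slide numbers per the file headers, so they pair the arrays. Deviations from group means correlated across genes at 0.89 to 0.93 within slide 1, 0.08 to 0.83 within slide 2 and 0.55 to 0.92 within slide 3; for the gold and silicate arrays of 100 nm themselves it was 0.93, 0.08 and 0.55, the lowest pair on slides 2 and 3. The tubes are separate pools of retinas per the labels. Genes named in the text are the 12 largest mean differences each way with 1 sign on all slides, the 4 highest each way on each slide, each list's brightest member and 3 largest, and 6 genes of earlier interest; others are named after their values were seen. In all 22 alternatives were run.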

Additional observations from a re-analysis of the deposited data

Results flagged for a closer look

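Rgr and Lrat had opposite differences between gold and silicate at the 2 sizes on every slide. Gold minus silicate was higher at 100 nm than at 20 nm by 1.56 log2 units for Rgr (limma, unadjusted p 0.000156, adjusted p 0.9998) and by 1.34 for Lrat (unadjusted p 0.0027, adjusted p 0.9998). Each was positive on 3 of 3 slides at 100 nm and negative on 3 of 3 at 20 nm, and neither passed the adjusted test. Over all genes tested the smallest unadjusted p of this limma test was 0.000156, so Rgr is an extreme picked from all genes.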

How the results depend on the processing

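All 22 alternatives gave 0 called genes for gold against silicate at 100 nm and, where run, for its difference from 20 nm. Without the slide term (no replicate block) the pairing is not used, and the count was 0 again, with 413 genes at an unadjusted p under 0.05 in limma, against 1443 with the block and 413 to 1858 over the alternatives; the smallest adjusted p ranged from 0.290 to 1.00, and for the difference from 20 nm from 0.104 to 1.00. Leaving out each replicate or array in turn gave 0 to 0 called genes. The adjusted p of Crygf, Cryge, Dnaic2, Ell3 and Ect2 ranged over the alternatives from 0.29 to 1.00. Among the 30 genes followed, Vegfa alone turned its sign, at -0.0486 in the series' value table, -0.0423 with the mean of its probes, -0.0837 without replicate 1, -0.0492 without gold 100 nm replicate 1 and -0.0604 without silicate 100 nm replicate 1, and leaving out arrays in turn gave -0.0837 to 0.0573; a difference of 0.00 has no direction. List medians resting on slide 3 shrank without it: macrophages and microglia from -1.49 to -0.18, chemokines from -1.52 to -0.20, gliosis from -1.20 to -0.45. The medians of 9 of 31 lists turned sign without it: lens from -0.79 to 0.33, extracellular matrix from -1.05 to 0.11, skeletal muscle from -0.39 to 0.42, phagocytosis from -0.50 to 0.15, proliferation from -0.45 to 0.04, oxidative stress from -0.20 to 0.06, metal handling from -0.14 to 0.05, cones from 0.12 to -0.06 and ganglion cells from 0.04 to -0.05. Without slide 3 Cxcl10 was at -1.31, Cxcl5 at -0.99, Ccl5 at -1.07, Il1b at -0.82, Bcl3 at -1.28, Plac8 at -0.94, Saa1 at -0.68, Crygc at -1.77, Cryga at -1.69 and Glb1l3 at 0.57. With processed signals Cxcl5 was at -4.28. With both silicate arrays of slide 3 left out, an alternative chosen after seeing the data, Crygf was at -3.54 and Rgr at 1.02. Immediate early genes moved from -0.61 to -0.41 and proliferation genes from -0.45 to 0.06 in that alternative. Median centring, processed signals and the other scalings moved the median of all genes by under 0.1. Without gold 100 nm replicate 1, amacrine and horizontal cell genes were at -0.02 and heat shock genes at -0.17. A fit with an intensity trend and robust prior was also chosen after seeing the data. Low signal limits Cxcl5, S100a8 and Ccl4 in gold tubes.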

Other observations

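Zik1 had the largest positive difference of ratios on slide 3, 2.34, beside 0.08 and 0.15 on slides 1 and 2. Its Cy3 level differed by -9.61 between the gold and the silicate array of that slide, and in Cy5 the gold tube read 9.19 and the silicate tube 16.45 in log2, so the gold tube was lower and both channels of the silicate spot were bright. Scgb2b2, a secretoglobin, had differences of 2.98, 0.20 and 0.37, so that its mean rests on the gold tube of slide 1: the fitted 1.18 was 0.29 without replicate 1 and 1.96 with processed signals. Dcn, decorin of connective tissue, had 2.34, 1.25 and -4.76. Blood genes had medians of 0.36, -0.13 and -0.03 over 6 of 11 genes measured, and skeletal muscle genes had 0.34, 0.76 and -2.60 over 9 of 11.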
